A study of Mus musculus with 12 samples.

Results

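The genes described here are 4 Schlafen genes (*Slfn2*, *Slfn5*, *Slfn8* and *Slfn9*) and 6 TRIM genes linked to interferon (*Trim30a*, *Trim21*, *Trim25*, *Trim14*, *Trim34a* and *Trim56*). They were taken by symbol as a fixed list of 10 genes among the 35521 genes with counts listed, and each of the 10 was among the 12555 genes that passed the expression filter. Bulk RNA-Seq was done on 4T1 cells, a mammary carcinoma line from BALB/c mice, in 3 groups of 4 libraries. Tu-Gr1+CD11b+–primed 4T1 cells (tumor-primed for short) had shared a Transwell with Gr1+ cells taken from tumors of mice bearing 4T1 tumors, Spl-Gr1+CD11b+–primed 4T1 cells (spleen-primed) with Gr1+ cells taken from the spleens of such mice, and parental 4T1 cells were grown without Gr1+ cells. The cells lay on opposite sides of a membrane with 0.4 µm pores for 48 hours, and the Gr1+ cells, a mixed myeloid population selected on magnetic columns, were isolated on day 21 after tumor cell injection by the labels. The labels number the libraries of each group from 1 to 4 without saying whether they came from separate cultures or animals, so p-values measure the spread between these libraries, which may be technical.

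Schlafen proteins are a vertebrate family that carries a nuclease-like core and acts on tRNA and on RNA of viruses, and several members rise with type I interferon. The short form *Slfn2* is known for helping to keep T cells quiescent, whereas *Slfn5*, *Slfn8* and *Slfn9* belong to the long forms that also hold a helicase-like part. TRIM proteins share a RING, B-box and coiled-coil arrangement, most of them are ubiquitin ligases, and those studied here act in the sensing of viral nucleic acid or its restraint. Genes of both families can be induced when an interferon-activated transcription factor complex that holds IRF9 binds interferon-stimulated response elements (ISRE) near their start sites.

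Between 24566183 and 31637755 reads were assigned per library (median 27277534). The 8 epithelial markers were present in each group, with a summed level, in CPM (counts scaled to the effective library size), of 1914 to 2349 in tumor-primed cells, 2403 to 2593 in spleen-primed cells and 2673 to 3987 in parental cells. Leukocyte markers were summed at 1.33 CPM or less in each library, and the granulocyte gene *Camp* and the macrophage gene *Adgre1* were at 0 counts in all 12 libraries, which allows up to 3 counts or 0.126 CPM by counting error. Other markers of both lists were detected and in part called higher after priming, and their values stand beside the order of the tumor-primed libraries. In tumor-primed cells, replicate 4 was the lowest of the 4 libraries for 79.3% of the 585 genes called higher than in spleen-primed cells, and replicate 1 the highest for 42.1%.

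The windows around the start sites are shown first because 6 of the genes share the letters of an ISRE, in both families. RefSeq promoter windows of GRCm38.p6, from 250 bases before to 50 bases after a start site, were found for 9 of the 10 genes, with *Trim14* the one without a window. An ISRE-type word was searched on both strands, made of GAAA, then any 2 bases, then GAAA again, and read as TTTC on the other strand. It was present in 6 of these 9 genes and in 3.99% of all 27025 genes with a window. The word lay at -155 bases from the start site in *Slfn5*, -48 in *Slfn8*, -45 in *Slfn9*, -36 in *Trim30a* and 10 in *Trim34a*, and at 13 and 19 in *Trim21*, where both copies overlap. The 30 bases around it are given here on the strand of each gene, with the word in capitals.
*Slfn5*, chr11:82951937-82951966, plus strand: ccttcaaagtGAAAAAGAAAaaaaaaaaag
*Slfn8*, chr11:83020839-83020868, minus strand: atttgagcagTTTCGTTTTCcccaaaagca
*Slfn9*, chr11:82991856-82991885, minus strand: atccgagcagTTTCGTTTTCccaaaaacaa
*Trim30a*, chr7:104465210-104465239, minus strand: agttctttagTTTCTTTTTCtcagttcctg
*Trim34a*, chr7:104244457-104244486, plus strand: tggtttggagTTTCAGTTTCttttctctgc
*Trim21*, chr7:102565447-102565476, minus strand: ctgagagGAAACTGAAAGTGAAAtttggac
The letters were not found in these windows of *Slfn2*, *Trim25* and *Trim56*. A second word, the palindrome TTCNNNGAA of the interferon gamma-activated site type, was found in 0 of the 9 genes and in 9.55% of all genes with a window. Among the other Trim genes, 6 of 48 with a window held the ISRE-type word, among them *Trim12a*, *Trim12c*, *Trim30d* and *Trim5* of the same stretch of chromosome 7 as *Trim30a* and *Trim34a*. The windows of *Trim6*, *Trim30b*, *Trim30c* and *Trim34b* of that stretch did not hold it. Nor did those of the other Schlafen genes *Slfn1*, *Slfn3*, *Slfn4*, *Slfn14* and *Slfnl1*. A match of letters is a description of the window and does not show that a factor binds there.

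*Slfn8* and *Slfn9* are neighbors on chromosome 11, and the 250 bases before their start sites are shown whole because they are the most alike of the pairs aligned, which were pairs within either family. When aligned, 206 bases were identical with 38 mismatches and 12 gap positions, or 80.47% identity, against 46.35% to 52.14% for the other pairs. The ISRE-type word in capitals stands in the same surroundings in both.
*Slfn8*, chr11:83020811-83021060, minus strand: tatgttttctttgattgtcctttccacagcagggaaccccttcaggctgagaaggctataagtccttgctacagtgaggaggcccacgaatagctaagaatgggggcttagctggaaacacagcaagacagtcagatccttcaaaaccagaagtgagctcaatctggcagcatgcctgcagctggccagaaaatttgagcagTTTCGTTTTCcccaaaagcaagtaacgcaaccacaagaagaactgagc
*Slfn9*, chr11:82991831-82992080, minus strand: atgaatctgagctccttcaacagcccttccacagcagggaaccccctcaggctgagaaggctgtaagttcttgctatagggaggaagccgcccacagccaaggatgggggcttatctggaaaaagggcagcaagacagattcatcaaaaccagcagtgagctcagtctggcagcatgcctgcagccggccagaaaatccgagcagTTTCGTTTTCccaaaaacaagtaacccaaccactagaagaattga

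The comparison of tumor-primed with spleen-primed cells asks what priming by cells from the tumor does beyond priming by cells from the spleen. Here 9 of the 10 genes were higher after tumor priming, from 1.43-fold for *Slfn9* to 5.08-fold for *Trim30a*, and *Slfn5* was the exception. For these 9 genes the 4 libraries of one group did not overlap those of the other. Of all genes tested, 4.66% were called higher, meaning a Benjamini-Hochberg adjusted p under 0.05 over the 12555 genes in the quasi-likelihood test of edgeR, and 8.51% were higher without overlap. None of the 10 genes was called lower, beside 2.97% of all genes. The median log2 fold change of the 10 genes was 0.98 and that of all genes tested -0.01. The 10 genes were chosen with earlier results of these data known. Their counts and median beside those of all genes, here and below, therefore carry no test. Against parental cells, 9 genes were again called higher after tumor priming, beside 31.2% of all genes, and 7 were higher without overlap, beside 28.6%. None was called lower, beside 28% of all genes, and none was lower without overlap, beside 26.9%. In spleen-primed against parental cells 1 gene was called higher and 0 lower by edgeR, beside 25.7% and 22.5% of all genes, while 2 were higher and 2 lower at an unadjusted p under 0.05, 1 higher and 2 lower by DESeq2, and 0 higher and 1 lower by limma-voom. These comparisons share libraries with each other, and bulk RNA cannot tell a change in the number of expressing cells from a change in RNA per cell.

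**Figure D1:**
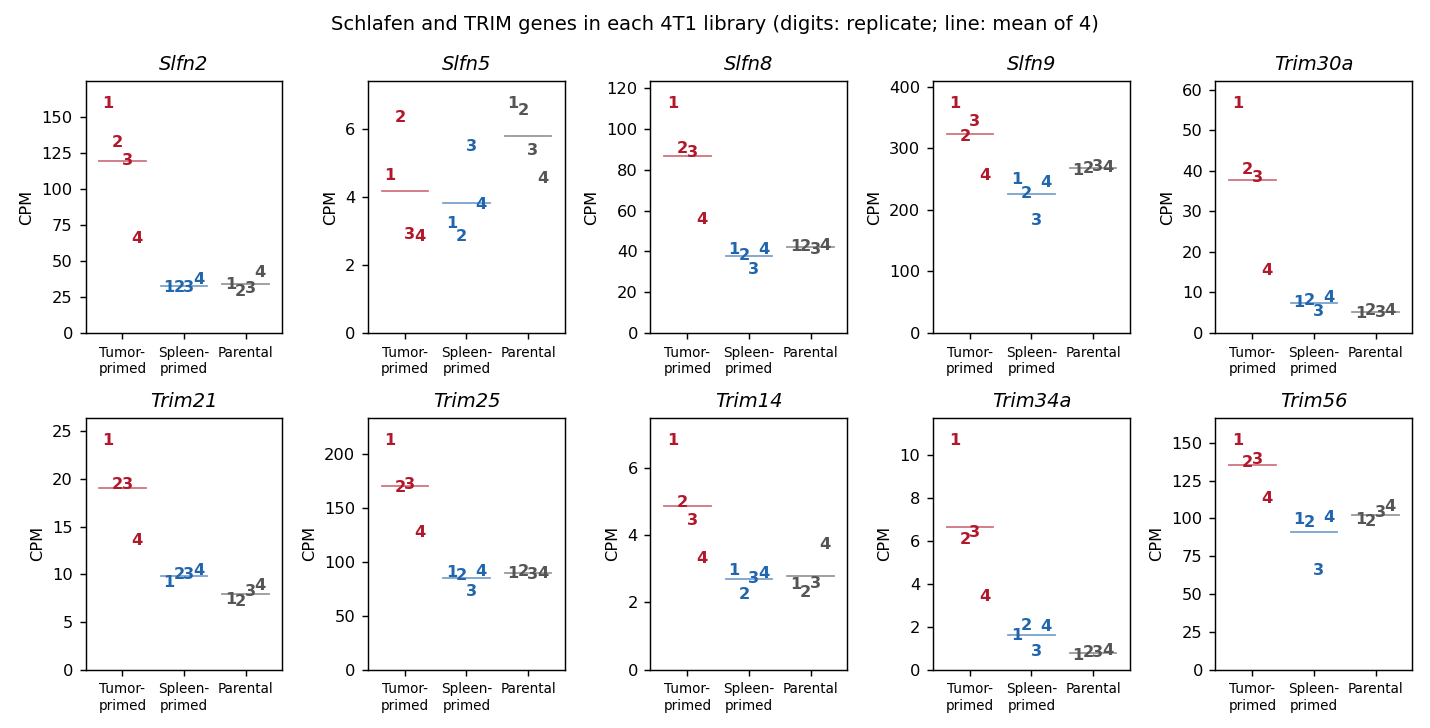
Each panel plots the level of 1 gene in CPM (vertical axis, starting at 0) in the 12 libraries, by group on the horizontal axis, with digits for the replicate number and a line at the mean of the 4 libraries. Replicate 1 is the highest and replicate 4 the lowest of the tumor-primed libraries for each gene except *Slfn5*, and replicate 4 still lies above the spleen-primed libraries.

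Among the 4 Schlafen genes, *Slfn2* (ENSMUSG00000072620, GRCm38 chromosome 11 from 83065112 to 83070678, plus strand) had the largest difference between the primed groups. Its level was 159, 132, 119.6 and 65.5 CPM in replicates 1 to 4 of tumor-primed cells, 31.3, 31.9, 31.5 and 37.1 CPM in spleen-primed cells and 33.8, 28.8, 30.6 and 41.7 CPM in parental cells. The lowest tumor-primed library stood 1.77-fold above the highest spleen-primed library, and the spleen-primed and parental libraries overlapped. Tumor-primed cells exceeded spleen-primed cells by 1.85 on the log2 scale (SE 0.20, adjusted p = 7.01e-05) and parental cells by 1.82 (SE 0.20, adjusted p = 7.16e-06).

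*Slfn8* (ENSMUSG00000035208, chromosome 11 from 83002158 to 83020810, minus strand) is a long Schlafen gene. It was measured at 112, 90.4, 88.3 and 55.6 CPM in tumor-primed cells. In spleen-primed cells the values were 41.1, 37.7, 31.1 and 41.1 CPM, and in parental cells 42.3, 42.5, 41.1 and 42.9 CPM. Each tumor-primed library lay above the other 8 libraries, whose 2 groups overlapped. On the log2 scale, the excess was 1.20 over spleen-primed cells (SE 0.16, adjusted p = 0.000266) and 1.04 over parental cells (SE 0.16, adjusted p = 7.36e-05).

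*Slfn9* (ENSMUSG00000069793, chromosome 11 from 82978390 to 82991830, minus strand), the neighbor with the similar start region, had a smaller fold change than *Slfn8*, a difference that was not tested. Its level was 372, 319, 343 and 256 CPM in tumor-primed cells, 249, 227, 183 and 244 CPM in spleen-primed cells and 264, 267, 270.1 and 268 CPM in parental cells. Replicate 4 of the tumor-primed libraries stood 1.03-fold above the highest spleen-primed library and under each parental library. The transcripts of *Slfn9* share 22.64% of their 31-base words with other genes, 14.27% with the pseudogene *Slfn10-ps* and 13.28% with *Slfn8*. Those of *Slfn8* share 26.8%, with 19.1% in *Slfn9* and 18.72% in *Slfn10-ps*. The division of reads among these genes is therefore uncertain. With *Slfn8* and *Slfn9* summed, but not *Slfn10-ps*, the difference between the primed groups was 0.63 (adjusted p = 0.00346). For *Slfn9* alone, the log2 fold change against spleen-primed cells was 0.51 (SE 0.11, adjusted p = 0.00853). Against parental cells it was 0.27 (SE 0.11, adjusted p = 0.0408), and this call was lost in 12 of 24 alternative analyses. The spleen-primed libraries all lay below the parental ones, as 18.3% of the genes tested did, with a log2 fold change of -0.24 that did not pass the threshold (adjusted p = 0.0736), although it passed in 3 of 24 alternatives (lowest adjusted p = 0.031).

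*Slfn5* (ENSMUSG00000054404, chromosome 11 from 82951349 to 82964840, plus strand), a long Schlafen gene, showed another pattern. It was measured at 4.65, 6.33, 2.90 and 2.85 CPM in tumor-primed cells, 3.23, 2.83, 5.48 and 3.79 CPM in spleen-primed cells and 6.74, 6.55, 5.37 and 4.56 CPM in parental cells. The groups overlapped in each comparison, and the parental mean of 5.80 CPM was the highest of the 3. The log2 fold change between the primed groups was 0.12, with a 95% interval from -0.44 to 0.68 (adjusted p = 0.832), so a difference of the size seen for *Slfn9* lies inside the interval. Against parental cells it was -0.48 (adjusted p = 0.121) after tumor priming and -0.60 (adjusted p = 0.0672) after spleen priming, where 6 of 24 alternative analyses passed the threshold (lowest adjusted p = 0.0136). Without replicate 2 of the tumor-primed libraries the sign between the primed groups turned, to -0.14, and the difference from parental cells passed the threshold (-0.75, adjusted p = 0.0191).

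*Trim30a* (ENSMUSG00000030921, chromosome 7 from 104409025 to 104465193, minus strand), known as a brake on Toll-like receptor signaling through TAB2 and TAB3, had the largest fold change between the primed groups among the 6 TRIM genes. Its level was 56.5, 40.3, 38.4 and 15.4 CPM in tumor-primed cells, 7.63, 8.14, 5.19 and 8.66 CPM in spleen-primed cells and 4.79, 5.44, 5.12 and 5.67 CPM in parental cells. Each tumor-primed library was above the other 8 libraries, and within the tumor-primed group replicate 1 was 3.66-fold above replicate 4, the widest spread among the 10 genes. Compared with spleen-primed cells the log2 fold change came to 2.34 (SE 0.29, adjusted p = 0.000172), and compared with parental cells to 2.84 (SE 0.31, adjusted p = 4.85e-06). Between spleen-primed and parental cells it was 0.50 (adjusted p = 0.22), with overlapping libraries, and it passed the threshold in 2 of 24 alternatives (lowest adjusted p = 0.0233). Its transcripts share 11.52% of their 31-base words with other genes, and with the related Trim30 copies summed the difference between the primed groups was 2.32 (adjusted p = 0.000174).

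*Trim34a* (ENSMUSG00000056144, chromosome 7 from 104244457 to 104262234, plus strand), an interferon-induced gene of the same stretch, was the lowest of the 10 genes in parental cells per length. It was measured at 10.6, 6.06, 6.36 and 3.40 CPM in tumor-primed cells, 1.60, 2.07, 0.835 and 2.02 CPM in spleen-primed cells and 0.640, 0.824, 0.797 and 0.879 CPM in parental cells. The tumor-primed libraries stood above the other groups, and 3 of the 4 spleen-primed libraries stood above the parental ones. Tumor-primed cells exceeded spleen-primed cells by 2.02 on the log2 scale (SE 0.31, adjusted p = 0.00103) and parental cells by 3.08 (SE 0.35, adjusted p = 7.80e-06). *Trim34a* was the gene called higher in spleen-primed than in parental cells, by 1.06 (SE 0.38, adjusted p = 0.0328), although parental counts were 19 to 22 a library and the call was lost in 8 of 24 alternative analyses. Its transcripts share 48.74% of their 31-base words with *Trim34b*, so the division of reads between the copies is uncertain, and with both summed the log2 fold change between the primed groups was 2.10 (adjusted p = 0.000378).

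Of the TRIM genes that act in RNA sensing, *Trim25* (ENSMUSG00000000275, chromosome 11 from 88999376 to 89020293, plus strand) encodes the ligase known for ubiquitinating RIG-I, the product of *Ddx58*. Its level was 212, 169, 172 and 127 CPM in tumor-primed cells, 89.8, 87.2, 72.4 and 90.9 CPM in spleen-primed cells and 89.2, 90.8, 88.5 and 89.5 CPM in parental cells. The tumor-primed libraries were above all others, and spleen-primed and parental libraries overlapped. On the log2 scale, the excess was 1.00 over spleen-primed cells (SE 0.12, adjusted p = 0.00013) and 0.93 over parental cells (SE 0.12, adjusted p = 1.99e-05).

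*Trim14* (ENSMUSG00000039853, chromosome 4 from 46493781 to 46536141, minus strand) encodes a mitochondrial adaptor in MAVS signaling that lacks the RING part. It was measured at 6.81, 4.97, 4.44 and 3.30 CPM in tumor-primed cells, 2.95, 2.25, 2.72 and 2.85 CPM in spleen-primed cells and 2.53, 2.31, 2.56 and 3.72 CPM in parental cells. The primed groups did not overlap, whereas replicate 4 of the parental libraries lay above replicate 4 of the tumor-primed ones. Compared with spleen-primed cells the log2 fold change came to 0.85 (SE 0.21, adjusted p = 0.0218), and compared with parental cells to 0.81 (SE 0.21, adjusted p = 0.00429). Without replicate 1 or 2 of the tumor-primed or replicate 2 of the spleen-primed libraries the first call was lost, with adjusted p = 0.0807, 0.0619 and 0.0725.

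Most *Trim14* reads were assigned to a transcript that the annotation does not call protein coding. Trim14-204, a processed transcript of 670 bases, held 75.6% ± 9.20 of the gene's reads (SD, n = 4) in tumor-primed cells, 65.6% ± 4.80 in spleen-primed cells and 63.1% ± 12.7 in parental cells. Of its 6 exons, 4 are identical to exons of a protein-coding transcript, and the last lies within the last exon of that transcript. Only the first exon, of 44 bases, lies outside it, which limits how far such reads can be told apart. The protein-coding transcripts alone were at 0.752 ± 0.362, 0.501 ± 0.225 and 0.844 ± 0.471 CPM in the 3 groups, and their log2 fold change was 0.60 (adjusted p = 0.515) between the primed groups and -0.12 (adjusted p = 0.837) between tumor-primed and parental cells. The other transcripts were at 4.13 ± 1.12, 2.19 ± 0.373 and 1.93 ± 0.562 CPM. For the other 9 genes, protein-coding transcripts held 87.8% or more of the reads in each library.

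**Figure D2:**
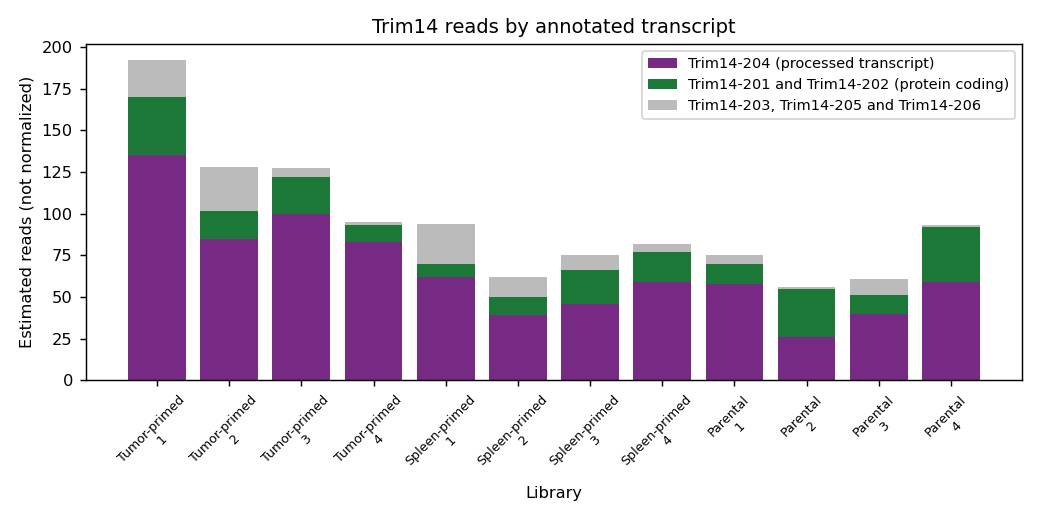
Bars give the estimated reads of *Trim14* in each of the 12 libraries (vertical axis, reads before normalization), divided by annotated transcript. Trim14-204 takes the larger share in 11 of 12 libraries and is at 82.7 to 135.2 reads in the tumor-primed group, 39.4 to 62.1 in the spleen-primed group and 26.1 to 59.2 in parental cells.

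*Trim56* (ENSMUSG00000043279, chromosome 5 from 137105644 to 137116209, minus strand), a ligase linked to STING signaling and to restriction of RNA viruses, had a smaller difference. Its level was 151, 137, 139 and 113 CPM in tumor-primed cells, 99.2, 97.5, 65.4 and 100.7 CPM in spleen-primed cells and 99.1, 97.8, 104 and 108 CPM in parental cells. Each tumor-primed library was above the other 8, and replicate 3 of the spleen-primed libraries stood apart below. Over all genes tested, that replicate was the lowest spleen-primed library for 36.4% and the highest for 37%. Tumor-primed cells exceeded spleen-primed cells by 0.57 on the log2 scale (SE 0.12, adjusted p = 0.00888) and parental cells by 0.40 (SE 0.12, adjusted p = 0.01). Without replicate 3 of the spleen-primed libraries the first value was 0.46 and remained past the threshold.

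*Trim21* (ENSMUSG00000030966, chromosome 7 from 102557921 to 102565486, minus strand) encodes the cytosolic antibody receptor that targets antibody-bound virus for degradation. It was measured at 24.0, 19.4, 19.4 and 13.5 CPM in tumor-primed cells, 9.10, 10.0, 9.95 and 10.4 CPM in spleen-primed cells and 7.41, 7.13, 8.22 and 8.87 CPM in parental cells. The 3 groups were ordered without overlap, with the tumor-primed libraries highest and the parental ones lowest. On the log2 scale, the excess was 0.95 over spleen-primed cells (SE 0.14, adjusted p = 0.000548) and 1.27 over parental cells (SE 0.14, adjusted p = 6.00e-06). The step from parental to spleen-primed cells, 0.32 (SE 0.14), did not pass the threshold (adjusted p = 0.0804) except in 3 of 24 alternatives (lowest adjusted p = 0.0161), and 21.3% of the genes tested were higher there without overlap.

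**Figure D3:**
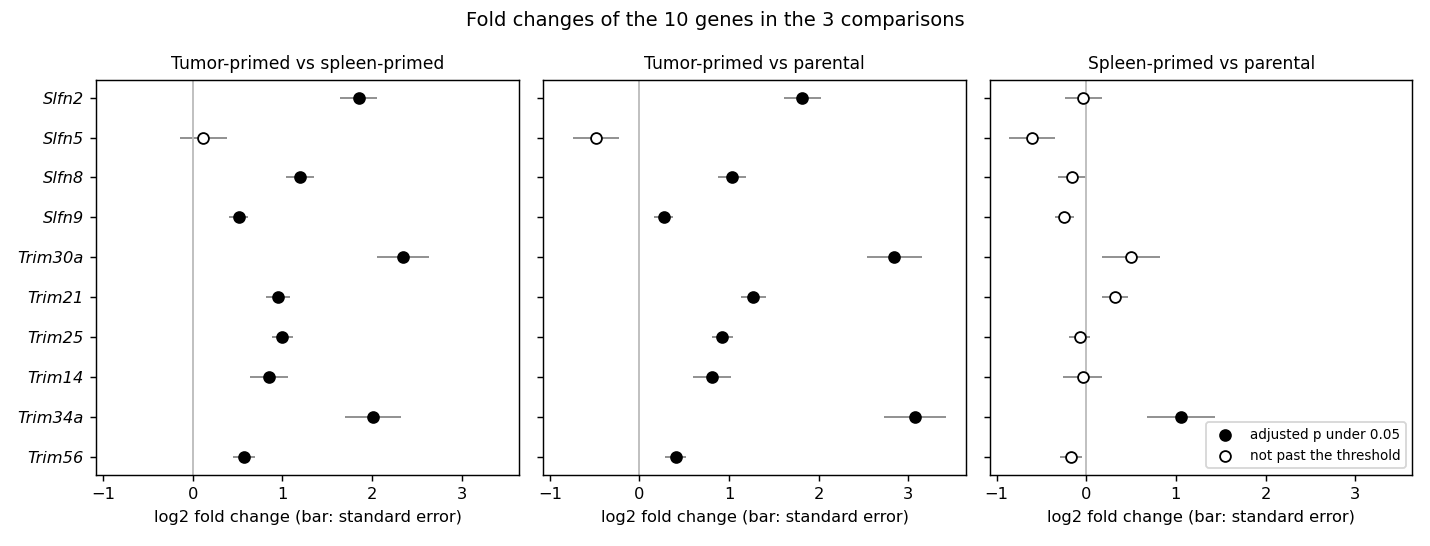
The 3 panels plot the log2 fold change of the 10 genes (horizontal axis) in the 3 comparisons, with bars for the SE and filled points for an adjusted p under 0.05. Filled points number 9, 9 and 1 of 10 from left to right, and *Slfn5* is the open point in the first 2 panels.

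Within the tumor-primed group the genes other than *Slfn5* shared the highest and the lowest library, while the order of replicates 2 and 3 varied. For the 9 genes called higher than in spleen-primed cells, replicate 1 was the highest and replicate 4 the lowest library in 9 of 9, beside 42.1% and 79.3% of the 585 genes called higher. The ratio of replicate 1 to replicate 4 ran from 1.34 for *Trim56* to 3.66 for *Trim30a*. Without replicate 4, 9 of the 10 genes were still called higher than in spleen-primed cells, and without replicate 1, 8 were. In the same libraries the summed level of the 12 granulocyte markers was 6.28 to 11.5 CPM. It was 4.83 to 6.86 in spleen-primed cells and 5.36 to 6.57 in parental cells. Of the 3 markers with enough counts to be tested, 2 were called higher than in spleen-primed cells, beside 4.66% of all genes. Against parental cells 2 were called higher, beside 31.2% of all genes. The log2 fold changes of the 3 ran from 0.15 to 1.16 and from 0.16 to 1.21 in these comparisons. Of the 12 markers, 6 were at 0 in all 4 tumor-primed libraries, 7 in the spleen-primed and 5 in the parental ones, and the part of other cells in the result was not tested. The summed monocyte and macrophage markers were at 6.68 to 8.23 CPM in the tumor-primed, 5.34 to 6.50 in the spleen-primed and 4.96 to 5.73 in the parental libraries. Of 9 such markers 2 were tested. *Mrc1*, the macrophage mannose receptor, was called higher than in parental cells after tumor priming (0.94, adjusted p = 0.000537) and after spleen priming (0.59, adjusted p = 0.0165). It was not called between the primed groups (0.35, adjusted p = 0.249). The other, *Cd68*, was not called in these comparisons, with 0.19, -0.08 and 0.28 in the same order.

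Across the 12 libraries, log2 CPM values of the 9 genes other than *Slfn5* ran together. The correlation was closest between *Slfn8* and *Trim25* (Pearson r = 0.99) and least between *Slfn9* and *Trim21* (r = 0.67), while that of *Slfn5* with the others lay between -0.39 and 0.03. By the correlation with the mean standardized pattern of all 10 genes over the 12 libraries, those most alike included *Gbp2*, *Ifit1*, *Irgm1* and *Ddx58*, with r of 0.99 for each. These values describe libraries that share their group, and no test was made of them.

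Levels of different genes were compared per length, as TPM, a length-scaled share of all transcripts, within a group. In tumor-primed cells, *Slfn2* had the highest level with 115 ± 37.5 TPM (SD, n = 4), followed by *Slfn9* with 90.0 ± 14.4, *Trim25* with 44.6 ± 9.06, *Slfn8* with 36.2 ± 10.3 and *Trim56* with 28.4 ± 3.22 TPM. *Slfn2* and *Slfn9* overlapped between libraries, as did *Trim25* with *Slfn8* and *Slfn8* with *Trim56*. The next were *Trim30a*, *Trim14* and *Trim21*, with 15.3 ± 6.19, 15.3 ± 4.97 and 11.4 ± 2.65 TPM and overlapping libraries, ahead of *Trim34a* with 3.90 ± 1.71 and *Slfn5* with 0.995 ± 0.377 TPM. In parental cells *Slfn9* was first with 55.0 ± 5.87 TPM and *Slfn2* second with 23.5 ± 2.46 TPM, without overlap. *Trim25*, *Trim56* and *Slfn8* followed at 16.8 ± 2.04, 15.5 ± 1.99 and 13.0 ± 1.23 TPM, each overlapping the next. *Trim14*, *Trim21*, *Trim30a*, *Slfn5* and *Trim34a* came last, from 5.57 ± 1.13 to 0.335 ± 0.0396 TPM, and of these neighbors only *Trim21* and *Trim30a* overlapped. The TPM of *Trim14* rests mostly on its short transcript.

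The other Schlafen genes of the annotation number 6, of which 3 had enough counts to be tested. Each of the 3 was called higher in tumor-primed than in spleen-primed cells, beside 4.66% of all genes. *Slfn4*, a Schlafen gene of myeloid cells, had 73, 56, 54 and 16 counts in the tumor-primed libraries. It had 13, 12, 8 and 9 counts in the spleen-primed and 0, 4, 0 and 2 in the parental ones, so it passed the filter in part through the tumor-primed libraries. Its log2 fold change between the primed groups was 2.30 (SE 0.47, adjusted p = 0.008). Against parental cells it was 4.83 (adjusted p = 2.91e-05) after tumor priming and 2.54 (adjusted p = 0.0161) after spleen priming. The transcripts of *Slfn2* share 6.98% of their 31-base words with *Slfn4*. Whether reads of *Slfn2* were assigned to *Slfn4* was not tested. Between the primed groups, *Slfn3* and the pseudogene *Slfn10-ps* differed by 0.60 (adjusted p = 0.0241) and 0.63 (adjusted p = 0.0249). Both calls were lost without replicate 1, 2 or 3 of the tumor-primed or replicate 2 of the spleen-primed libraries. In these fits adjusted p lay between 0.0562 and 0.0894, while the call of *Slfn4* held. Against parental cells *Slfn3* was not called after tumor priming (0.22, adjusted p = 0.217). It was called lower after spleen priming (-0.38, adjusted p = 0.0499). This call held only without replicate 1 or 4 of the tumor-primed or replicate 1 of the spleen-primed libraries. It was lost with any other library left out, at an adjusted p between 0.054 and 0.095. *Slfn10-ps* was called higher than in parental cells after tumor priming (0.56, adjusted p = 0.00771) but not after spleen priming (-0.07, adjusted p = 0.745). *Slfn14* was at 0 counts in all 12 libraries, and *Slfn1* and *Slfnl1* reached at most 2 and 3 counts.

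Both families lie in runs of related genes, and 11 of the 13 tested genes in the runs were called higher in tumor-primed than in spleen-primed cells, beside 4.66% of all genes. Of the 13, 6 are among the 10 listed genes, and 5 of these were called. The runs hold close copies that share sequence, such as *Trim34a* and *Trim34b*, so their calls are not separate observations. *Slfn4* and *Trim30d* had most of their counts in the tumor-primed libraries and passed the filter in part through them. The share beside all genes therefore carries no test. The Schlafen run on chromosome 11 has *Slfn5*, *Slfn9*, *Slfn8*, *Slfn10-ps*, *Slfn2*, *Slfn4* and *Slfn3* as its tested genes, and their log2 fold changes in that order were 0.12, 0.51, 1.20, 0.63, 1.85, 2.30 and 0.60. The Trim run on chromosome 7 has *Trim6*, *Trim34a*, *Trim34b*, *Trim12c*, *Trim30a* and *Trim30d* as its tested genes, with 0.62, 2.02, 2.21, 1.30, 2.34 and 2.04. *Trim6* was not called between the primed groups (adjusted p = 0.147) but stood higher than in parental cells after both primings, by 2.28 (adjusted p = 1.60e-05) and 1.66 (adjusted p = 0.000421). *Trim12c*, at 22.0 ± 6.58, 8.92 ± 0.808 and 5.38 ± 0.746 CPM (SD, n = 4), was called higher in each of the 3 comparisons. *Trim5* was at 0 counts, *Trim12a* reached at most 14 and *Trim30b* and *Trim30c* at most 5 counts, and these were not tested.

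**Figure D4:**
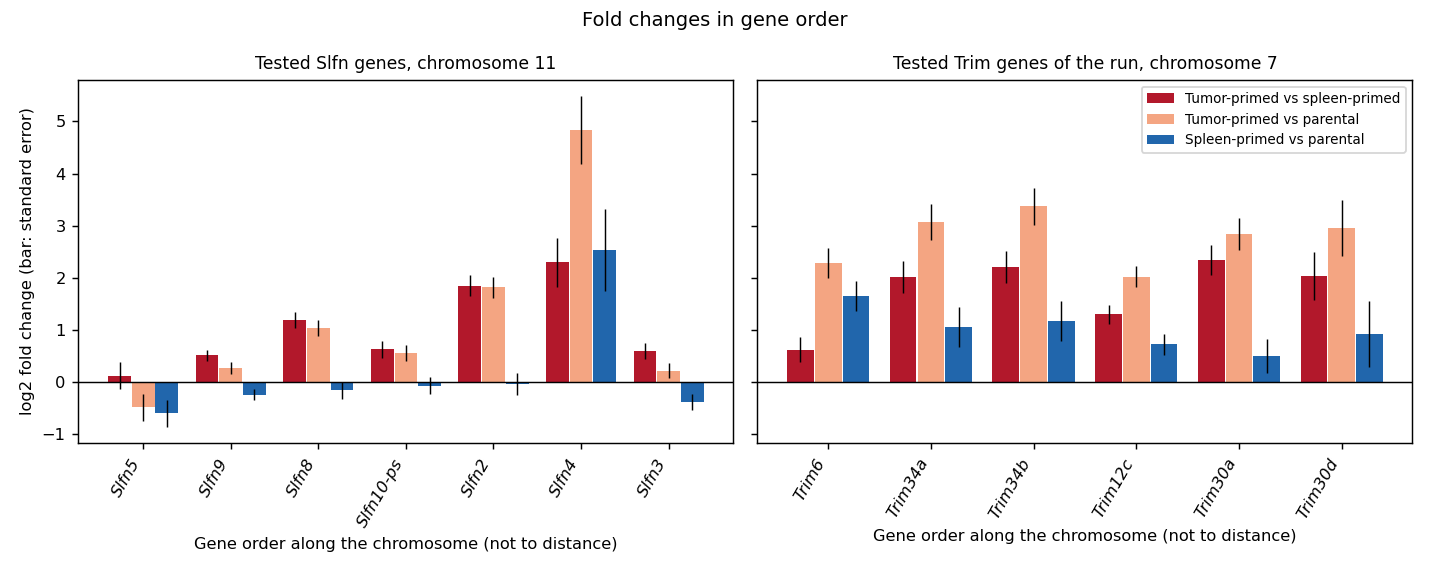
Bars give log2 fold changes with SEs in the 3 comparisons for the tested genes of the Schlafen run on chromosome 11 (left) and of the Trim run on chromosome 7 (right), in gene order and not to distance. Between the primed groups 11 of the 13 genes are called higher, beside 4.66% of all genes, with *Slfn5* and *Trim6* the exceptions. The runs include close copies that share sequence, and the count carries no test.

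The remaining Trim genes were called between the primed groups in smaller part than the 6 listed. Of 63 other Trim genes in the annotation 35 were tested, and calls were made for 4 as higher (11.4%) and 2 as lower (5.71%) in tumor-primed cells, beside 4.66% and 2.97% of all genes tested, with a median log2 fold change of 0.04. Of the 4, *Trim34b*, *Trim30d* and *Trim12c* belong to the run on chromosome 7, where the low counts of *Trim30d* overlapped between the groups, and the fourth, *Trim26*, rose by 0.31 (SE 0.06, adjusted p = 0.00332), with 42.9 ± 2.90 CPM against 34.7 ± 1.00 CPM. *Trim47* and *Trim27* were lower, by -0.46 (adjusted p = 0.0097) and -0.24 (adjusted p = 0.0241). Against parental cells 16 were called higher (45.7%) and 6 lower (17.1%) after tumor priming, beside 31.2% and 28% of all genes, and 12 higher (34.3%) and 5 lower (14.3%) after spleen priming, beside 25.7% and 22.5%. The list of 6 TRIM genes was chosen with results of these libraries known, and its contrast with the other Trim genes carries no test.

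**Figure D5:**
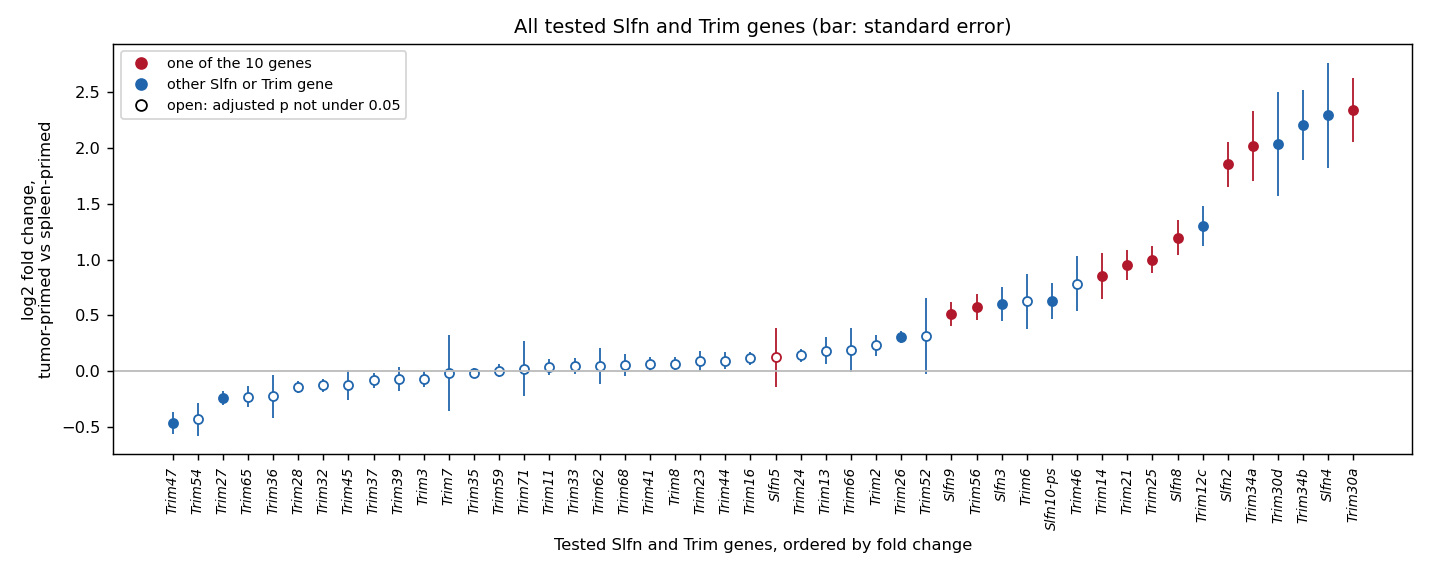
Points give the log2 fold change between tumor-primed and spleen-primed cells (vertical axis, bars for the SE) of each tested Slfn and Trim gene, ordered by fold change, with the 10 listed genes in red and open points for an adjusted p that was not under 0.05. The 29 other Trim genes without a call spread around 0, and *Trim30a*, *Slfn4*, *Trim34b*, *Trim30d*, *Trim34a* and *Slfn2* form the upper end.

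Of 16 genes that encode known partners of these proteins or sensors of nucleic acid, calls were made for 4 as higher and 1 as lower in tumor-primed cells, which is 25% and 6.25% beside 4.66% and 2.97% of all genes. *Isg15*, the ubiquitin-like modifier, was at 29.8, 21.0, 13.8 and 5.90 CPM in the tumor-primed libraries and between 1.96 and 2.07 CPM in the spleen-primed ones, with a log2 fold change of 3.13 (SE 0.38, adjusted p = 0.000136). *Ddx58*, the RNA sensor on which *Trim25* acts, changed by 1.80 (SE 0.19, adjusted p = 5.77e-05). The adaptor of *Trim14*, *Mavs*, was the gene called lower (-0.28, adjusted p = 0.0293), and its libraries overlapped between the groups. Against parental cells 6 of the 16 were called higher (37.5%) and 2 lower (12.5%) after tumor priming, beside 31.2% and 28% of all genes, and 4 higher (25%) and 4 lower (25%) after spleen priming, near the 25.7% and 22.5% of all genes. Of 12 interferon signaling genes, 6 were called higher between the primed groups (50%), and against parental cells 9 were higher (75%) and 1 lower (8.33%) after tumor priming and 6 higher (50%) and 1 lower (8.33%) after spleen priming, to be read beside the same shares of all genes. *Irf7*, the factor that amplifies interferon responses, and *Irf9*, the subunit of the interferon-activated complex that recognizes the ISRE, had the largest values, 4.33 (SE 0.40, adjusted p = 2.42e-05) and 2.70 (SE 0.20, adjusted p = 4.70e-06). *Irf7* too was highest in replicate 1 and lowest in replicate 4 of the tumor-primed libraries, at 67.0, 43.9, 36.7 and 13.0 CPM.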

How the data were processed

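RNA was sequenced from 12 libraries of 4T1 cells with a stranded kit, 4 in each of 3 groups taken from the labels. Per the submitters' processing notes, FastQC, Trimmomatic 0.39 and Salmon 1.4.0 were used with GRCm38/mm10, and the strand setting is not given in the sources used here. For each library the authors deposited estimated counts per Ensembl transcript, not normalized, with TPM scaled for length and depth by the authors' quantification, and effective lengths. A deposited table of normalized counts per gene was not used. Estimated counts were summed per gene with GENCODE M21 (116021 of 117081 transcripts, the others holding at most 0.419% of the reads) and rounded. Antisense genes annotated over *Slfn5*, *Slfn2* and *Trim34a* were not analysed here, and without use of strand their reads could not be told apart. CPM used TMM factors (0.88 to 1.05), and TPM only ordered genes within a group.

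All 12 libraries entered 1 fit of edgeR's quasi-likelihood test (edgeR 4.0.16, R 4.3.3) without a replicate term, after filterByExpr (12555 genes), with a Benjamini-Hochberg threshold of 0.05. Each standard error (SE) was taken from the fold change and its F statistic. Replicate libraries differed beyond sampling noise, with a chi-square of at least 3.46 per degree of freedom. The procedure was tested on simulated data. Correlations used log2 CPM with a prior count of 2. Windows were scanned on both strands in Python 3.11.15 and aligned with Biopython 1.88, with sequences from RefSeq, and figures were drawn with matplotlib 3.10.9.

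Named were the 10 listed genes, the other Slfn genes, the Trim run, the other Trim genes called with the 5 largest and 3 smallest log2 fold changes, the 2 largest changes of each list, and the 5 genes most alike, of which not all are reported here. *Mavs*, *Camp*, *Adgre1*, *Mrc1* and *Cd68* were named after their values were seen. Members and lists were chosen with earlier results of these data known. The alternatives were RLE and upper-quartile normalization, DESeq2 1.42.0, limma-voom (limma 3.58.1), omitting the filter, a minimum of 10 counts in each library, fitting the 8 libraries of a comparison alone, a replicate term, length offsets, protein-coding transcripts, related copies merged, thinning to the smallest library and leaving out each library.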

Additional observations from a re-analysis of the deposited data

Results flagged for a closer look

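Each of the 10 genes was examined in each group of 4 libraries, 30 groups in all, for a library far from the other 3, and 2 were found. Chance marks about 1 in 20 groups, so 2 of 30 is close to what chance gives. *Slfn2* was at 37.1 CPM in replicate 4 of the Spl-Gr1+CD11b+–primed libraries, above the 31.3 to 31.9 CPM of the others. *Trim56* was at 65.4 CPM in replicate 3 of the same group, under the 97.5 to 100.7 CPM of the others. That library was the lowest spleen-primed library for 6 of the 10 genes and for 36.4% of all genes tested. It was the highest for 1 of the 10 genes and for 37% of all genes tested.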

How the results depend on the processing

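Over 24 alternatives, between 8 and 9 of the 10 genes were called in tumor-primed against spleen-primed cells and between 8 and 9 against parental cells. The spleen-primed comparison with parental cells was less stable. It had 1 gene called in the main analysis, 3 by DESeq2, 2 without a filter and 5 with only the 8 libraries compared. When single libraries were left out, 0 to 4 were called. These counts take both directions together, as in 1 higher and 2 lower by DESeq2. In the main analysis 25.7% of all genes were called higher and 22.5% lower. For the other Slfn genes, leaving out 1 library gave 1 to 3 calls between the primed groups (3 in the main analysis) and 1 to 2 in spleen-primed against parental cells (2 in the main analysis). Their count against parental cells was 1 with at least 10 counts in every library and 1 with protein-coding transcripts for tumor priming (2 in the main analysis), and for spleen priming 0 with at least 10 counts, 0 with only 8 libraries, 1 with length offsets and 1 with protein-coding transcripts.

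Signs turned for *Slfn5* between the primed groups without tumor-primed replicate 2 (-0.14, within -0.14 to 0.36 over single libraries left out), for *Trim14* with protein-coding transcripts against parental cells (-0.12), and in spleen-primed against parental cells for *Slfn2* with protein-coding transcripts (0.0088) and without parental replicate 4 (0.082, within -0.10 to 0.082), and for *Trim14* with length offsets (0.15), without spleen-primed replicate 2 (0.03) and without parental replicate 4 (0.13). None of these 7 values passed the threshold. The *Trim14* call between the primed groups was also lost with length offsets (adjusted p = 0.12 by edgeR). The cause was not tested.

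With the replicate number as a block, 9, 8 and 1 of the 10 genes were called in the 3 comparisons, and the call of *Slfn9* against parental cells was lost (0.26, adjusted p = 0.058 by edgeR). The block changed no other call of the 10 genes. The labels do not pair the libraries, and deviations of same-numbered libraries from their group means correlated by -0.16 to 0.15 over the 3 comparisons, with 3 of 4 tumor-primed libraries closest to their own number only in the comparison with parental cells. Counts of 19 to 22 in parental *Trim34a* and 56 to 93 in parental *Trim14* limit the precision of both genes.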
